A study of Mus musculus with 12 samples.

Results

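Expression of 10 genes of bone morphogenetic protein (BMP) signaling was examined in mouse retinas after inhibition of pericyte recruitment, with and without minocycline. They were the 4 Id genes Id1, Id2, Id3 and Id4, the Smad genes Smad6, Smad7 and Smad9, and the ligand genes Bmp4, Bmp6 and Bmp7. The genes were taken by symbol from a table of 50559 genes, in which all 10 were present, and all 10 passed the filter on low counts in every comparison. They were put together because Id1 and Id2 were low in retinas given both the antibody and minocycline. The levels of these 2 genes in that group are therefore given as a description without a test, in every comparison that includes it.

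BMP ligands bind pairs of type I and type II receptors, which phosphorylate Smad1, Smad5 and Smad9, and these enter the nucleus with Smad4. The Id genes are among the best known targets of this route, and Id proteins are helix-loop-helix proteins that lack the basic region needed to bind DNA, so they hold E proteins and other basic helix-loop-helix (bHLH) factors away from it. Smad6 and Smad7 are inhibitory Smads that are themselves induced by the pathway and damp it, whereas Smad9 carries the signal and is not an inhibitory Smad. In vessels, BMP signaling through the receptor ALK1 and its co-receptor endoglin acts in endothelial cells (ECs), and Id1 and Id3 are known there for their part in the growth of new vessels.

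The retinas came from WT C57BL/6J mice, the label giving no further genotype, and were collected at P28 in 4 groups of 3 libraries. At P1, the mice were given 30 µg of control IgG or of APB5, a rat antibody that blocks mouse PDGFRβ and so keeps pericytes from reaching the growing capillaries. The groups IgG+Mino and APB5+Mino were also given minocycline, a tetracycline antibiotic that dampens microglia, once a day from P5 to P27 at 45 mg/kg, and no group was without an antibody injection. The antibody acts in the whole animal and not in pericytes alone, and the whole retina was measured. Values are CPM, the deposited read counts of a gene scaled to the size of its library, and a call required both an adjusted p no higher than 0.05 and a change past 1 on the log2 scale.

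Total counts lay between 52740545 and 59411044 per library. On a principal component holding 38.4% of the variance, APB5 replicate 3 lay at 126 and the other 11 libraries between −53.9 and 25.7. Its summed rod markers were 12530 CPM against 47580 to 72090 CPM elsewhere. Some values of the 10 genes are therefore also given without it. Xist had at least 47210 counts in all 3 IgG libraries and in replicate 3 of APB5 and of APB5+Mino, and at most 38 counts in the other 7, so sex and minocycline cannot be told apart between IgG and IgG+Mino. Pdgfrb encodes the target of APB5 and is not deleted by it. It ranged from 12.8 to 20.1 CPM in IgG and from 15.36 to 37.96 CPM in APB5. In IgG+Mino it ranged from 14.72 to 18.56 CPM and in APB5+Mino from 14.4 to 15.1 CPM. The sum of 10 pericyte markers was 109.1, 118 and 127.2 CPM in IgG and 150.3, 146.6 and 416.6 CPM in APB5. The summed pericyte marker RNA was thus not lower in the APB5 libraries at P28. Single markers differed, with a positive log2 fold change for 8 of the 10 and a negative one for 2. Kcnj8 was at 3.48 to 3.938 CPM in IgG and at 2.063 to 3.033 CPM in APB5, without overlap. Fewer cells of a type and less RNA per cell cannot be told apart in whole retinas.

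The sequences just upstream of the 4 Id genes are shown because Id3 stood lowest in the APB5+Mino retinas, as did Id1 and Id2, which were chosen for it. Each is the 250 bases before the start of the canonical transcript on GRCm39, written 5′ to 3′ along the gene's own strand. They lie at chr2:152577915-152578164 (plus strand) for Id1, chr12:25147283-25147532 (minus strand) for Id2, chr4:135870558-135870807 (plus strand) for Id3 and chr13:48414308-48414557 (plus strand) for Id4. Capitals mark, on either strand, GGCGCC, known as a GC-rich Smad element, CAGAC, known as a Smad-binding element, and TGACG, the core of a cyclic AMP response element.
Id1: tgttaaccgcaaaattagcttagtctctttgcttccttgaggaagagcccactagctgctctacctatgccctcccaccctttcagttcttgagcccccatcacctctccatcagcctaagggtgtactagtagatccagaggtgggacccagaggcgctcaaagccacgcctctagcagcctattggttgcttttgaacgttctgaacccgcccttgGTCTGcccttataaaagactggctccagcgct
Id2: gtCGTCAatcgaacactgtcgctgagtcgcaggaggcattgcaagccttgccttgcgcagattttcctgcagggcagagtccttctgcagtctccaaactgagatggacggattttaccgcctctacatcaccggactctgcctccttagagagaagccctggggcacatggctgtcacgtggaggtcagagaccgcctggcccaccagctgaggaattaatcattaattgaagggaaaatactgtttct
Id3: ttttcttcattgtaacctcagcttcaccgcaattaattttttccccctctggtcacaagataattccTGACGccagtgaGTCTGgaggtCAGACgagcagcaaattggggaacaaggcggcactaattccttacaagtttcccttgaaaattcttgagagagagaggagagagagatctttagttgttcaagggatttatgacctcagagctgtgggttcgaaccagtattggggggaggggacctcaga
Id4: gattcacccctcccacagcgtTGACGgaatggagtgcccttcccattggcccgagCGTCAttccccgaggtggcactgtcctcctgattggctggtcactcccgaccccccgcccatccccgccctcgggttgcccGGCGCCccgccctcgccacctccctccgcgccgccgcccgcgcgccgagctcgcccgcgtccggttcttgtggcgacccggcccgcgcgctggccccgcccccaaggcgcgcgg
Among 21751 promoters of this length, GGCGCC was present in 9.31%, CAGAC in 41.3% and TGACG in 18%. GGCGCC was absent from the windows of Id1, Id2 and Id3 and present once in that of Id4, whose GC content was 75.6%. It was held by 22.5% of the 5998 promoters with a GC content of at least 60%. CAGAC stood once in the Id1 window and 2 times in that of Id3. TGACG stood once in Id2, once in Id3 and 2 times in Id4. CANNTG, the E-box that bHLH factors bind, was in 64.8% of all promoters and occurred 3 times in the Id2 window and in none of the other 3. These are matches of letters in a short window and not measured binding.

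Per kilobase of transcript, the Id genes were the most abundant of the 10 genes. In IgG retinas Id3 was at 26.2 ± 23.7, Id1 at 24.6 ± 18.3, Id4 at 14.2 ± 1.43 and Id2 at 11.9 ± 7.95 CPM per kb (SD, n = 3). The spread of Id1, Id2 and Id3 exceeded the gaps between neighbours in this order. Smad7 and Bmp7 followed at 3.8 ± 0.92 and 3.47 ± 0.818 CPM per kb, a gap within their spread. Smad9 was at 1.42 ± 0.28 CPM per kb. Smad6 at 1.09 ± 0.234 and Bmp4 at 0.943 ± 0.256 CPM per kb did not differ beyond their spread, and Bmp6 was lowest at 0.27 ± 0.0736 CPM per kb.

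**Figure D1:**
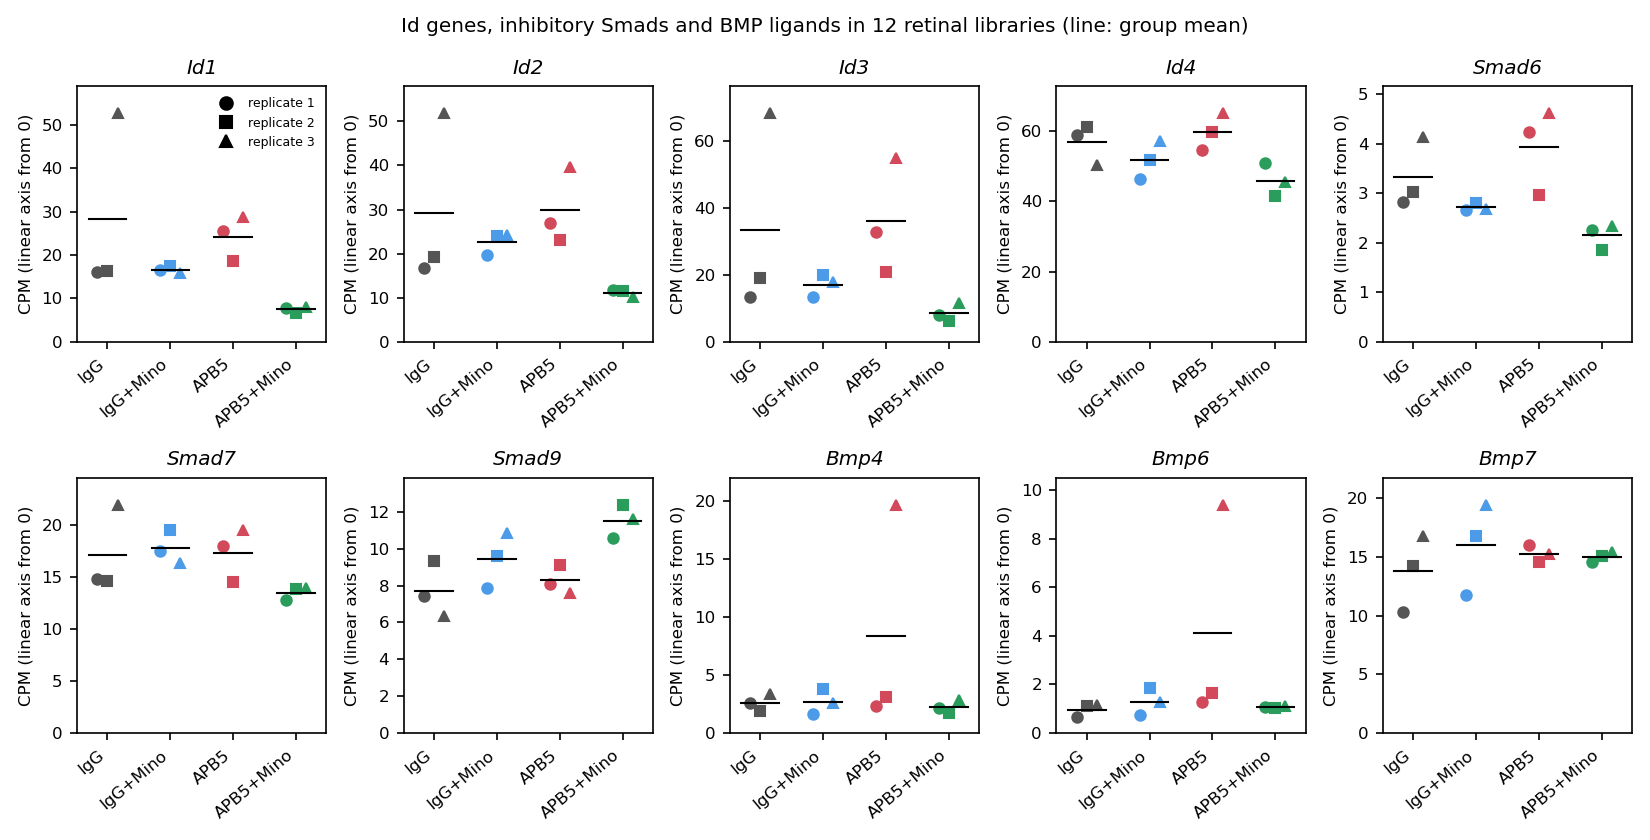
CPM of each of the 10 genes in 12 retinal libraries, by group, on linear axes that start at 0 and differ between panels. Each point is 1 library (circle, square and triangle for replicates 1, 2 and 3) and the line is the group mean. Id1, Id2, Id3, Smad6 and Smad7 are lower in the 3 APB5+Mino libraries than in any other library, IgG replicate 3 stands high for Id1, Id2 and Id3, and APB5 replicate 3 stands high for Bmp4 and Bmp6.

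Among the ligands, Bmp4, a dorsal patterning signal of the developing eye, had 2.59, 1.94 and 3.37 CPM in the IgG libraries and 2.33, 3.16 and 19.7 CPM in the APB5 libraries. In IgG+Mino it had 1.665, 3.77 and 2.6 CPM, and in APB5+Mino 2.15, 1.76 and 2.86 CPM. APB5 replicate 3 thus held 7.17 times the mean of the other 2 APB5 libraries, and the remaining 11 libraries overlapped between the groups.

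Bmp6, a ligand also known for its part in iron control, showed the same single high library. It had 0.665, 1.1 and 1.14 CPM in IgG and 1.28, 1.66 and 9.38 CPM in APB5, so the 3 APB5 libraries lay above the 3 IgG libraries, and APB5 replicate 3 held 6.37 times the mean of the other 2. It had 0.742, 1.84 and 1.3 CPM in IgG+Mino and 1.09, 1.02 and 1.13 CPM in APB5+Mino. Of 15810 genes with a mean of at least 1 CPM, 1.58% stood 5-fold or more above the other APB5 libraries in replicate 3. The 8 pigment epithelium markers summed to 911.2 CPM in that library against 498 and 424 CPM in the other APB5 libraries, and its astrocyte, pericyte and microglia sums were also the highest of the 12 libraries. Their part in the Bmp4 and Bmp6 values was not tested.

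Bmp7, known for its part in lens and eye formation, had group means from 13.8 to 16 CPM and varied 1.88-fold over the 12 libraries. Its level was 10.3, 14.2 and 16.75 CPM in IgG and 11.75, 16.8 and 19.4 CPM in IgG+Mino. In APB5 it was 16.03, 14.55 and 15.2 CPM and in APB5+Mino 14.5, 15.1 and 15.4 CPM, and no pair of groups was separated. The ligand loci are chr14:46620250-46636745 for Bmp4, chr13:38529065-38684280 for Bmp6 and chr2:172709805-172782410 for Bmp7 (GRCm39). Each is overlapped by noncoding genes and Bmp6 also by Txndc5, and whether the counting used the strand was not stated.

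APB5 was compared with IgG to ask what inhibition of pericyte recruitment did to these genes. None of the 10 was called by edgeR's quasi-likelihood test, nor was any of the 20350 genes tested (0%). DESeq2 also called none of the 10, against 0.428% of all genes. At an unadjusted p below 0.05 the count was 1 of 10 genes in edgeR, namely Bmp6, and 2 of 10 in DESeq2, against 7.23% and 8.56% of all genes. Bmp6 was also the only one of the 10 whose groups did not overlap, which 15.7% of tested genes did. The log2 fold change was 2.08 ± 0.77 (SE) for Bmp6 and 1.69 ± 0.79 for Bmp4, both with an adjusted p of 0.664. Without APB5 replicate 3 they were 0.59 and 0.06. When Xist was added as a covariate, over 12 libraries, both were called, at an adjusted p of 0.0129 for Bmp6 and 0.0141 for Bmp4. That fit called 5.57% of all genes and still held APB5 replicate 3. All 3 IgG libraries had high Xist, and APB5 replicate 3 was the only APB5 library that did. Sex, APB5 and that library therefore cannot be fully told apart in this comparison.

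The sign of Id1, Id2 and Id3 in the same comparison changed when single libraries were left out. The log2 fold change was −0.21 ± 0.47 for Id1, 0.05 ± 0.44 for Id2 and 0.14 ± 0.62 for Id3, with adjusted p from 0.914 to 0.979. Without IgG replicate 3 it was 0.58, 0.73 and 1.17. With IgG replicate 3 and APB5 replicate 3 both left out, a choice made after seeing the data, it was 0.44 ± 0.15 for Id1, 0.47 ± 0.13 for Id2 and 0.73 ± 0.22 for Id3, with adjusted p of 0.274, 0.181 and 0.213. In that fit 3 of the 10 genes had an unadjusted p below 0.05, against 12.9% of all genes, and none was called.

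Smad9, which carries the BMP signal, was the only one of the 10 genes that stood high in APB5+Mino retinas. It had 7.43, 9.33 and 6.34 CPM in IgG, 7.87, 9.6 and 10.9 CPM in IgG+Mino, and 8.1, 9.13 and 7.605 CPM in APB5. In APB5+Mino it had 10.6, 12.4 and 11.6 CPM. All 3 APB5+Mino libraries lay above all APB5 and IgG libraries, and 1 IgG+Mino library lay within their range. Its log2 fold change was 0.46 ± 0.14 against APB5 (adjusted p = 0.0693) and 0.29 ± 0.14 against IgG+Mino (adjusted p = 0.205), and neither was called. Smad9 lies on the plus strand at chr3:54662963-54708680 (GRCm39).

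Smad6, an inhibitory Smad that acts mainly on BMP receptors, was lowest in the APB5+Mino retinas. Its level was 2.815, 3.03 and 4.145 CPM in IgG, 2.66, 2.8 and 2.69 CPM in IgG+Mino, and 4.25, 2.975 and 4.62 CPM in APB5. In APB5+Mino it was 2.255, 1.86 and 2.33 CPM, below all other 9 libraries. On the log2 scale the difference was −0.88 ± 0.24 against APB5 (adjusted p = 0.0606) and −0.33 ± 0.17 against IgG+Mino (adjusted p = 0.231). Smad6 lies on the minus strand at chr9:63860341-63929793 (GRCm39).

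Smad7, which restrains both BMP and TGF-β receptors, had 14.8, 14.6 and 21.9 CPM in IgG and 17.5, 19.5 and 16.3 CPM in IgG+Mino. It had 17.9, 14.5 and 19.5 CPM in APB5 and 12.7, 13.8 and 13.9 CPM in APB5+Mino. As with Smad6, the 3 APB5+Mino libraries were below the other 9, here by a margin of less than 1 CPM. Its log2 fold change was −0.37 ± 0.14 against APB5 (adjusted p = 0.115) and −0.40 ± 0.11 against IgG+Mino (adjusted p = 0.057). Neither inhibitory Smad was called by edgeR or DESeq2 with all libraries in any comparison, and Smad6 was called against APB5 without APB5 replicate 2 (−1.05 ± 0.21, adjusted p = 0.0335), a fit that called 8.59% of all genes.

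Id1 and Id2 are the genes whose APB5+Mino values prompted the choice, and these values are given as a description. Id1, an early BMP target, had 15.98, 16.35 and 52.69 CPM in IgG, 16.5, 17.4 and 15.8 CPM in IgG+Mino, 25.5, 18.5 and 28.7 CPM in APB5, and 7.82, 6.5 and 8.03 CPM in APB5+Mino. Its APB5+Mino mean was 0.449 times that of IgG+Mino and 0.307 times that of APB5. Id2, which is also known for its part in lymphoid cells and in cell cycle control, had 16.7, 19.3 and 51.8 CPM in IgG, 19.6, 23.9 and 24.3 CPM in IgG+Mino, 26.97, 23.1 and 39.7 CPM in APB5, and 11.8, 11.5 and 10.04 CPM in APB5+Mino. The log2 fold change of APB5+Mino was −1.71 for Id1 and −1.44 for Id2 against APB5, and −1.15 and −1.02 against IgG+Mino.

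Id3, whose values the rule did not use, had 13.3, 18.9 and 68.25 CPM in IgG and 13.4, 19.9 and 17.8 CPM in IgG+Mino. It had 32.8, 21.0 and 54.8 CPM in APB5 and 7.86, 6.22 and 11.45 CPM in APB5+Mino. All APB5+Mino libraries were below the other 9, and the gap between 11.45 CPM and the lowest of those, 13.3 CPM, was smaller than the range within APB5+Mino.

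Id4, known for its expression in neural precursors, had the highest mean CPM of the 10 genes in each group and varied 1.57-fold over the 12 libraries. It had 59.0, 61.2 and 50.4 CPM in IgG and 46.4, 51.7 and 57.25 CPM in IgG+Mino. In APB5 it had 54.75, 59.7 and 65.1 CPM and in APB5+Mino 50.8, 41.45 and 45.4 CPM. The APB5+Mino libraries lay below the APB5 libraries and overlapped those of IgG+Mino. All 4 Id genes are overlapped by noncoding genes on the opposite strand (Gm75058 for Id1, Gm36287 and Gm59395 for Id2, Gm57159 for Id3 and Gm49291 for Id4), whose reads cannot be told apart if the counting did not use the strand.

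IgG replicate 3 stood apart for Id1, Id2 and Id3 and not for Id4. It held 3.26 times the mean of the other 2 IgG libraries for Id1, 2.88 times for Id2 and 4.24 times for Id3, against 0.839 times for Id4, 1.42 times for Smad6 and 1.49 times for Smad7. Of 15810 genes with a mean of at least 1 CPM, 0.436% stood 2.5-fold or more above the other IgG libraries in replicate 3. Its summed endothelial markers were 292 CPM against 232 and 245 CPM in the other IgG libraries. Blood markers summed to 257.9 CPM against 53.41 and 68.38 CPM, cone markers to 2124 CPM against 1235 and 1275 CPM, and microglia markers to 84.16 CPM against 55.1 and 63.55 CPM. Their part in the Id values of that library was not tested.

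IgG+Mino was compared with IgG to see what minocycline did without APB5. None of the 10 genes was called by edgeR or DESeq2, which called 0.0298% and 0.114% of 20143 tested genes. None had an unadjusted p below 0.05 by either tool, against 8.37% and 8.56% of all genes. Log2 fold changes were −0.77 ± 0.40 for Id1 (adjusted p = 0.596), −0.37 ± 0.37 for Id2 (adjusted p = 0.761) and −0.97 ± 0.50 for Id3 (adjusted p = 0.594). Without IgG replicate 3 these became 0.03, 0.33 and 0.08, so the lower means in IgG+Mino rested on that library. Smad6 alone had groups that did not overlap, with IgG+Mino below IgG, which 14.4% of tested genes did in either direction. All 3 IgG libraries and none of the IgG+Mino libraries had high Xist.

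APB5+Mino was compared with APB5 to ask what minocycline did once pericyte recruitment had been inhibited. Of the 8 genes other than Id1 and Id2, edgeR called 1, Id3, against 1.66% of 20281 genes tested, and Id3 was also the only one past the adjusted p at any fold, against 4.82%. The log2 fold change of Id3 was −2.10 ± 0.39 (adjusted p = 0.0461). With the replicate number as a block it was −2.04 ± 0.14 with an adjusted p of 0.0641, and no gene of the table was called in that fit (0%). DESeq2 called 3 of the 8, namely Id3, Bmp4 and Bmp6, against 7.55% of all genes. Bmp4 and Bmp6 had a log2 fold change of −1.91 and −1.92 in edgeR and of −0.28 and −0.44 without APB5 replicate 3.

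The call of Id3 also depended on the libraries used. Without APB5 replicate 3 its log2 fold change was −1.66 ± 0.25 (adjusted p = 0.00376), and without APB5 replicate 2 it was −2.38 (adjusted p = 0.0325). These fits called 4.48% and 8.59% of all genes. It was not called without APB5 replicate 1 (adjusted p = 0.105) or without APB5+Mino replicate 1 (0.119), 2 (0.214) or 3 (0.205), with log2 fold changes from −2.37 to −1.91. Those 4 fits called at most 0.00479% of all genes. Among libraries with low Xist, Id3 was at 32.8 and 21.0 CPM in APB5 and at 7.86 and 6.22 CPM in APB5+Mino. Between the single libraries with high Xist it was at 54.8 and 11.45 CPM.

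Of the 8 genes other than Id1 and Id2, 6 had groups that did not overlap in this comparison, where 46.3% of tested genes had separate groups. Id3, Id4, Smad6, Smad7 and Bmp6 were lower in APB5+Mino and Smad9 was higher. Id4 had a log2 fold change of −0.40 ± 0.12 (adjusted p = 0.0737) and Bmp7 one of −0.04 ± 0.11 (adjusted p = 0.808). Without APB5 replicate 3, Id4, Smad6 and Smad9 passed an adjusted p of 0.05 at 0.0463, 0.0308 and 0.036, with log2 fold changes of −0.32, −0.74 and 0.41 that were under the fold threshold. In that fit 26.6% of all genes passed the adjusted p at any fold.

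**Figure D2:**
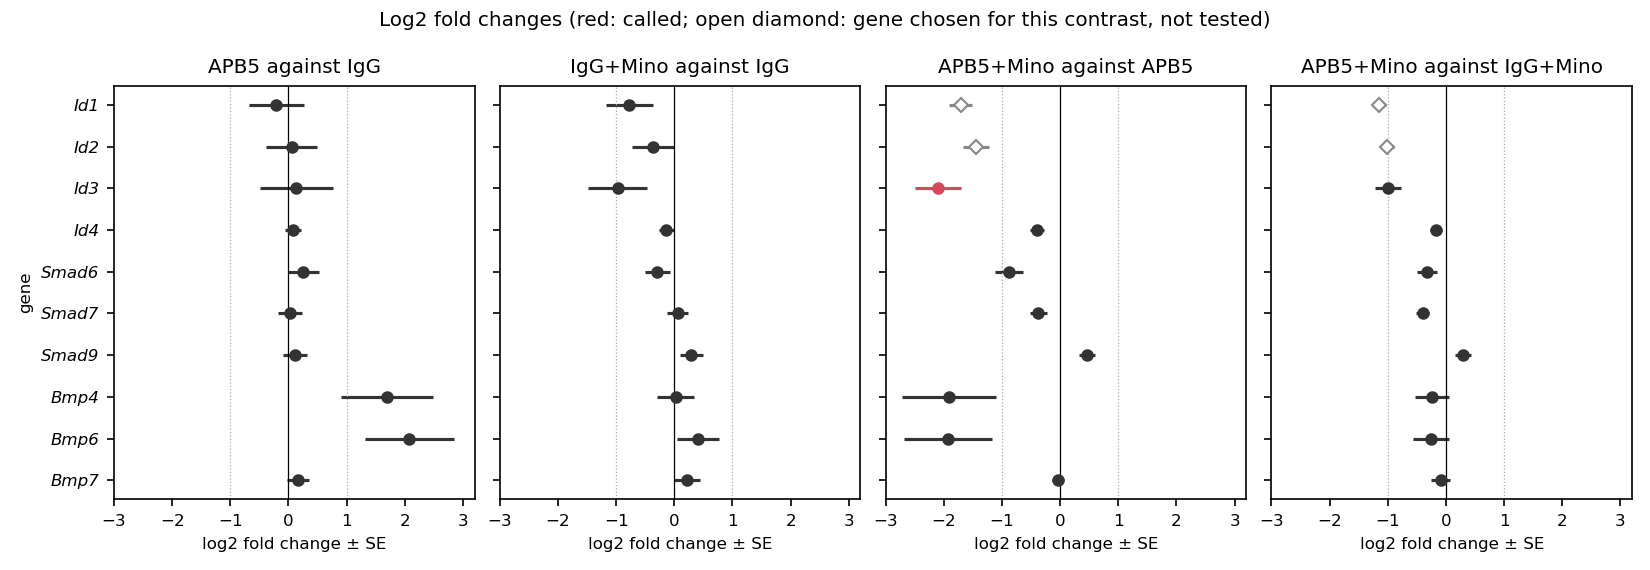
Log2 fold change ± SE of the 10 genes in 4 comparisons of 3 against 3 libraries. Filled circles were tested, red marks a call, open diamonds are Id1 and Id2 where they were chosen on that contrast, and dotted lines mark a log2 fold change of 1 in size. Id3 at −2.10 in APB5+Mino against APB5 is the single call, and Bmp4 and Bmp6 have the longest bars where APB5 is one of the groups.

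APB5+Mino was compared with IgG+Mino to see what APB5 did under minocycline. None of the 8 genes was called by edgeR or DESeq2, which called 1.23% and 1.35% of 20049 genes tested. At an unadjusted p below 0.05 the count was 2 of 8 by either tool, Id3 and Smad7, where 29.3% of all genes passed. Id3 had a log2 fold change of −0.99 ± 0.23 (adjusted p = 0.0359), just under the fold threshold, and was 1 of the 8 past the adjusted p at any fold, against 8.09% of genes. Leaving out any of the 6 libraries moved this adjusted p to between 0.00715 and 0.131, and with Xist as a covariate it was 0.2. Groups did not overlap for 3 of the 8 genes, Id3, Smad6 and Smad7, all lower in APB5+Mino, a share near the 35.2% of tested genes with separate groups.

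The same 3 genes of the 8 were lower in all APB5+Mino libraries than in any of the other 9, which 8.7% of 21228 genes were. The interaction of antibody and minocycline, fitted over 12 libraries, was called for none of the other 8 genes by edgeR or DESeq2. It holds the difference of IgG+Mino from IgG, where Xist was high in all IgG libraries and in no IgG+Mino library. Sex and the interaction therefore cannot be fully told apart. Calls with Xist as a covariate are given below, from a fit that called 4.39% of all genes. Of 21228 genes, edgeR called 0.0141% and DESeq2 1.86%. At an unadjusted p below 0.05 the count was 1 of 8, Bmp6, by either tool, against 17.1% of all genes in edgeR and 18.2% in DESeq2. The interaction term was −1.11 ± 0.74 for Id3 (adjusted p = 0.443), −0.58 ± 0.31 for Smad6 (adjusted p = 0.348) and −0.42 ± 0.24 for Smad7 (adjusted p = 0.382). Without IgG replicate 3 the term for Id3 was −2.16 ± 0.51 (adjusted p = 0.0946). For Bmp4 and Bmp6 it was −1.92 and −2.31, and −0.32 and −0.85 without APB5 replicate 3. The 4 pairwise comparisons share libraries, so their values are not independent of each other.

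**Figure D3:**
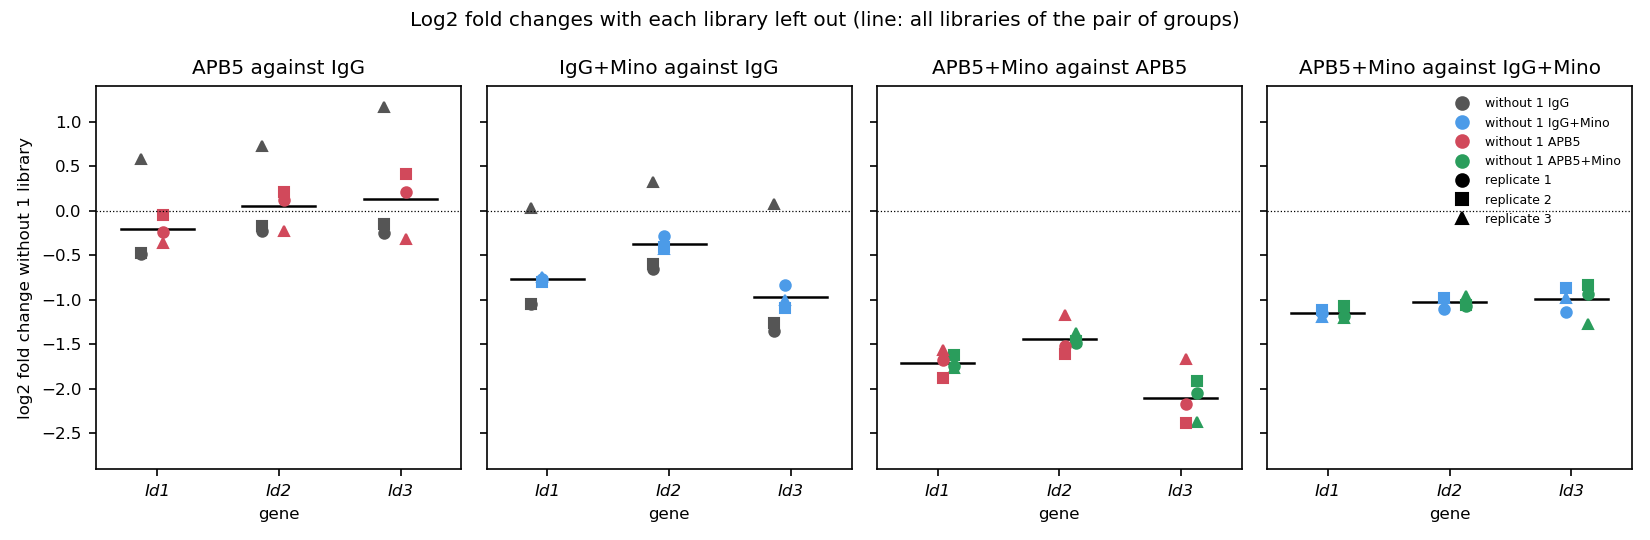
Log2 fold change of Id1, Id2 and Id3 in 4 comparisons when single libraries were left out. The black line is the value from all 6 libraries, the colour gives the group and the shape the replicate that was left out. Without IgG replicate 3 (grey triangle) the values of IgG+Mino against IgG move to 0.03, 0.33 and 0.08, and those of Id3 in APB5+Mino lie between −2.38 and −1.66 against APB5 and between −1.27 and −0.83 against IgG+Mino.

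Another 64 genes of BMP signaling were read from lists of ligands, receptors, Smads with their regulators, antagonists and targets. In APB5+Mino against APB5, 55 were tested and 3 were called, where 1.66% of all genes were, all lower in APB5+Mino, and the 3 were BMP target genes. With the replicate block none was called. At an unadjusted p below 0.05 the main edgeR fit gave 22 of the 55 genes, against 35.9% of all genes. The median log2 fold change was −0.42 over the 55 genes, 40 of them negative, and −0.02 over all genes tested. It was −1.07 for 10 targets, −0.64 for 14 antagonists, −0.39 for 11 other ligands, −0.12 for 12 receptors and 0.12 for 8 Smads and regulators. These medians include APB5 replicate 3 and were not computed without it.

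Atoh8, a bHLH target of BMP signaling in endothelium, fell from 2.83 ± 0.472 CPM (SD, n = 3) in APB5 to 1.05 ± 0.0877 CPM after minocycline, which was −1.42 ± 0.23 (SE) on the log2 scale (adjusted p = 0.0447). Gata2, a transcription factor of endothelial and blood cells, fell from 3.26 ± 0.301 to 1.58 ± 0.115 CPM, with −1.04 ± 0.19 (adjusted p = 0.0461). It was at 1.82 ± 0.222 CPM in IgG+Mino and 3.09 ± 0.342 CPM in IgG. Dlx2, a homeobox gene of interneurons, changed by −1.83 ± 0.32 (adjusted p = 0.0461) at only 16 to 18 counts per APB5 library and 2 to 4 per APB5+Mino library.

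Genes of the other lists with the smallest p in this comparison were not called. Among ligands Bmp2 had a log2 fold change of −1.19 ± 0.27 (adjusted p = 0.0512), Bmp5 0.63 ± 0.19 (adjusted p = 0.0743) and Bmp3 −0.30 ± 0.12 (adjusted p = 0.12). Among receptors the co-receptor genes Rgmb, Eng and Rgma had −0.32 ± 0.09 (adjusted p = 0.0674), −0.76 ± 0.28 (adjusted p = 0.103) and −0.96 ± 0.40 (adjusted p = 0.137). From lowest to highest, the APB5 libraries had 55.51, 56.73 and 59 CPM of Rgmb and 11.06, 16.14 and 24.16 CPM of Eng. For Rgma they had 17.05, 17.76 and 47.06 CPM, so 1 library raised its mean. Among Smads and regulators Skil, a corepressor, had −0.43 ± 0.10 (adjusted p = 0.0522), Smurf1, a ubiquitin ligase that acts on Smads, 0.44 ± 0.12 (adjusted p = 0.0596) and Smad1, a partner of Smad9, −0.49 ± 0.14 (adjusted p = 0.0642). Among antagonists Bambi, a decoy receptor that BMP signaling also induces, had −0.80 ± 0.22 (adjusted p = 0.0606), Fstl1 −1.43 ± 0.41 (adjusted p = 0.0676) and Nbl1 −1.10 ± 0.33 (adjusted p = 0.0727). In the APB5 libraries, from lowest to highest, Bambi had 8.269, 8.659 and 11.4 CPM. Fstl1 had 51.88, 55.35 and 148.8 CPM and Nbl1 59.42, 74.65 and 147.3 CPM, so 1 library raised the APB5 means of these 2 genes.

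In the other comparisons none of the 64 genes was called by edgeR. Against IgG+Mino the 55 genes tested had a median of −0.15, with 38 negative, and all genes a median of −0.01. There Chrd, which encodes the BMP antagonist chordin, at 0.67 ± 0.16 (adjusted p = 0.0416) and Bmp1, a protease that cleaves chordin, at 0.44 ± 0.11 (adjusted p = 0.0434) passed the adjusted p and not the fold threshold. At an unadjusted p below 0.05 the count was 16 of 55 genes there, 8 of 55 in APB5 against IgG and 6 of 54 in IgG+Mino against IgG, and for the interaction 14 of 57. The shares of all genes were 29.3%, 7.23%, 8.37% and 17.1%. DESeq2 called 1 gene of the lists in APB5 against IgG and none in the other 3. Its share of all genes was 0.428% in APB5 against IgG and 1.35% in APB5+Mino against IgG+Mino. It was 0.114% in IgG+Mino against IgG and 1.86% for the interaction.

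**Figure D4:**
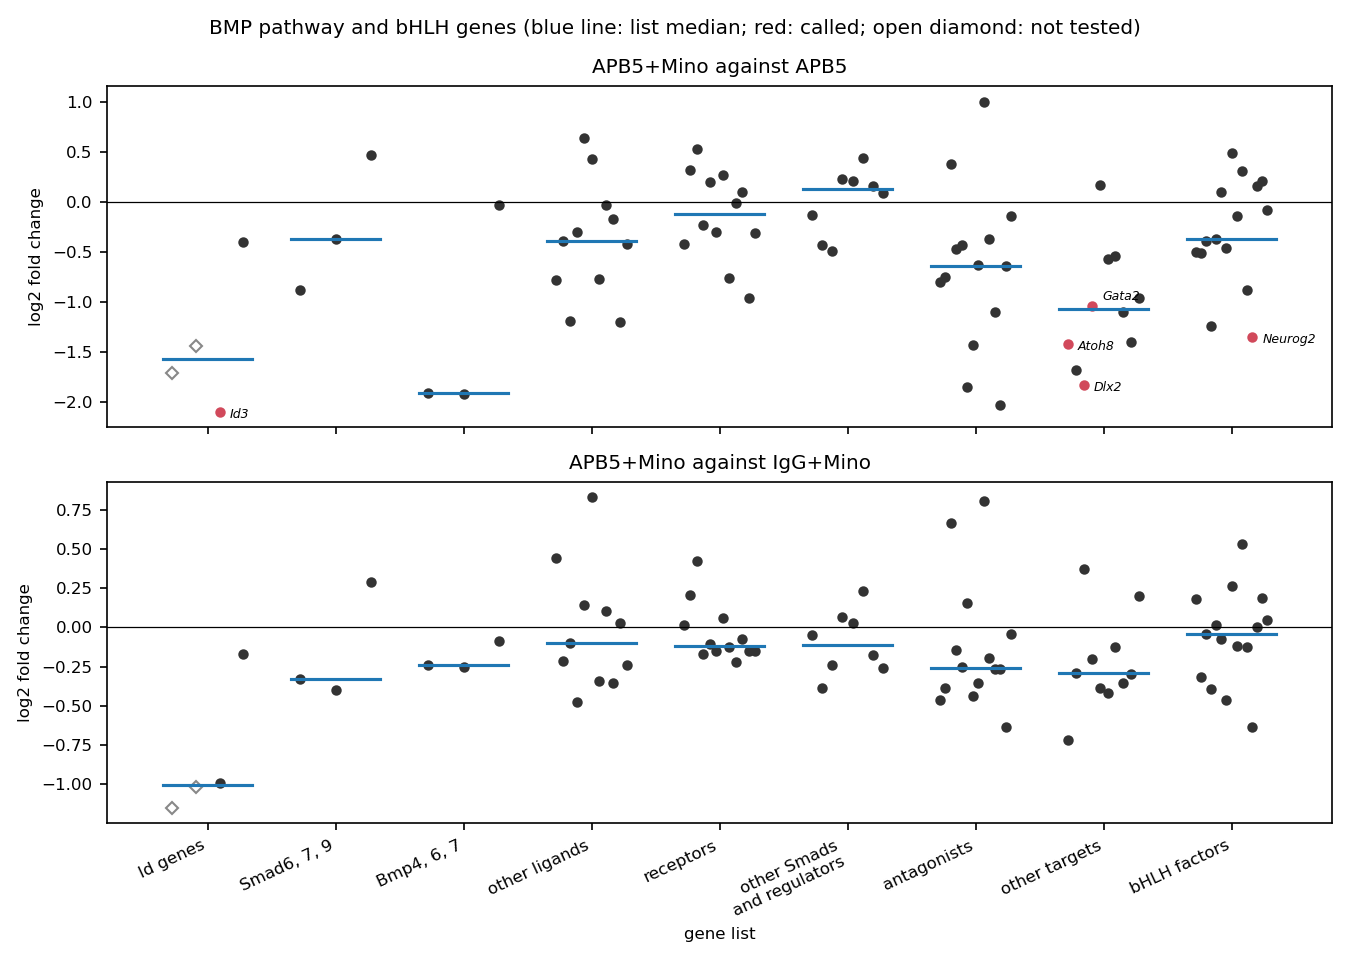
Log2 fold changes of the genes tested in each list, for APB5+Mino against APB5 (top) and against IgG+Mino (bottom), with different vertical scales. Each point is 1 gene, the blue line is the list median, red marks a call and open diamonds are Id1 and Id2, which were not tested. The 3 called targets and Neurog2 lie between −1.83 and −1.04 in the upper panel, and no tested gene is called in the lower one.

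The genes most like Id1 over the 12 libraries were named by the mean absolute difference of log2 CPM, each gene centred on its own mean, among 15811 genes with a mean of at least 1 CPM. They were Apold1, an early response gene of endothelium, at 0.167, then Id2 at 0.201, Dusp1, a phosphatase induced by stress, at 0.209, Cited4 at 0.226 and the proton-sensing receptor gene Gpr4 at 0.231. The median over all genes was 0.644, and a gene at the same level in all 12 libraries would stand at 0.577. Of the other genes of the 10, Id3 ranked 8, Smad6 62, Smad7 1659 (at 0.485), Id4 3540 (at 0.544), Bmp7 8561, Bmp4 10973, Smad9 13115 and Bmp6 13277. Those most like Id2 were Cited4 at 0.115, Dusp1 at 0.138, Aif1l at 0.178, Vstm4 at 0.179 and Gpr4 at 0.199, with a median of 0.566 over all genes. For Id2, Smad6 ranked 181 and Id3 ranked 378.

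These genes shared the high IgG library and the low APB5+Mino group with Id1. Apold1 had 4.16, 4.5 and 14.0 CPM in IgG and 2.24, 2.45 and 2.86 CPM in APB5+Mino. Dusp1 had 39.8, 48.5 and 114 CPM in IgG and 23.9, 23.4 and 23.6 CPM in APB5+Mino. They were picked for this likeness, so their values are a description.

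Summed markers of several cell types had lower means in APB5+Mino retinas than in the other groups. The sum of 12 endothelial markers was 216, 227 and 201 CPM in APB5+Mino, 215, 282 and 258 CPM in IgG+Mino, 287, 288.5 and 344 CPM in APB5 and 232, 245 and 292 CPM in IgG. Its mean in APB5+Mino was 0.852 times that of IgG+Mino and 0.7 times that of APB5. For the 12 Müller cell markers these ratios were 0.822 and 0.614, for the 5 astrocyte markers 0.746 and 0.192, for the 10 pericyte markers 0.841 and 0.342 and for the 10 microglia markers 0.594 and 0.163. They were 0.661 and 0.507 for the 8 pigment epithelium markers, 0.78 and 1.23 for rod markers, 0.784 and 0.873 for ganglion cell markers and 0.701 and 1.04 for blood markers. The ratios to APB5 hold the high values of APB5 replicate 3, which had 1096 CPM of astrocyte, 417 CPM of pericyte and 376.5 CPM of microglia markers.

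No marker of these lists was at 3 or fewer counts throughout a group. In APB5+Mino against IgG+Mino, 9 of 12 endothelial markers had a negative log2 fold change, with a median of −0.29, and 0 of 12 were called, while 10 of 10 microglia markers were negative with a median of −0.83 and 1 called. In APB5+Mino against APB5, 12 of 12 endothelial markers were negative, with a median of −0.75 and 2 called. The part of these cells in the Id and Smad values was not tested.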

How the data were processed

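RNA-Seq of 12 mouse retinas, 3 per group, was analysed. The authors made strand-specific poly-A libraries, demultiplexed the reads with bcl2fastq 2.20 and used the DRAGEN RNA pipeline for alignment to mm39, as the methods and the submitters' processing notes state. The pipeline's version and whether counting used the strand are not given in the sources used here. The deposited values are counts of reads per gene, not normalized. Repeated columns and a copy of the table were not used, nor were the authors' result tables, which hold fold changes, p-values and group means.

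Samples were grouped by their titles. With R 4.3.3, edgeR 4.0.16, limma 3.58.1 and DESeq2 1.42.0, low genes were removed by filterByExpr, libraries scaled by TMM and each pair of groups tested alone by edgeR's two-sided quasi-likelihood test (prior count 2), with Benjamini-Hochberg adjustment over all genes tested. CPM used TMM factors over 12 libraries. The fit was checked on simulated counts. P-values set the difference between groups against the spread between libraries within them, 3 per group, with that spread moderated across all genes tested. Each library had at least 52740545 counts, and the lowest member, Bmp6, at least 38 counts.

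The 10 genes, the lists and the tests were chosen with earlier results of these data known. Genes named are the 10, called genes of the pathway and bHLH lists, up to 3 genes per list with the smallest p in APB5+Mino against APB5, and the 5 genes most like Id1 and Id2. Chrd, Bmp1, Neurod4 and markers were added after their values were seen.

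For APB5+Mino against APB5, deviations from the group means correlated by 0.119, 0.169 and 0.127 in libraries of the same replicate number. These correlations are small, and no label states a pairing. The main test was therefore unpaired, and the replicate number was fitted as a block only as an alternative. In both groups replicate 3 alone had high Xist, so sex and that number cannot be told apart there. In each other comparison at least 1 correlation was under 0.1. Alternatives were RLE and total count scaling, DESeq2, no filter, no fold threshold, all 12 libraries, Xist as a covariate, the replicate block and each library left out. Promoters come from GRCm39 with GENCODE.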

Additional observations from a re-analysis of the deposited data

How the results depend on the processing

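Of 710 recomputed log2 fold changes of single genes, 680 kept their direction and 30 did not, none of the 30 called. The 710 include Id1 and Id2 in comparisons with APB5+Mino, for whose low values they were chosen. The recomputed fits also share most of their libraries. With each library left out in turn, changes of sign occurred in 3 comparisons. For APB5 against IgG the values ranged from −0.49 to 0.582 for Id1, −0.229 to 0.732 for Id2, −0.314 to 1.17 for Id3, −0.00907 to 0.148 for Id4, −0.0747 to 0.231 for Smad7, −0.0216 to 0.277 for Smad9 and −0.00729 to 0.311 for Bmp7. For IgG+Mino against IgG they ranged from −1.05 to 0.0335 for Id1, −0.649 to 0.327 for Id2, −1.35 to 0.0765 for Id3, −0.0422 to 0.271 for Smad7 and −0.297 to 0.265 for Bmp4. For APB5+Mino against IgG+Mino they ranged from −0.483 to 0.0816 for Bmp4, −0.519 to 0.0794 for Bmp6 and −0.261 to 0.0585 for Bmp7. Called genes ranged from 0 to 2 of the 8 and from 0 to 8 of the pathway lists in APB5+Mino against APB5. They ranged from 0 to 1 of the 8 in APB5+Mino against IgG+Mino, and from 0 to 1 of the lists for the interaction. The highest counts were reached without APB5 replicate 2, IgG+Mino replicate 1 and IgG replicate 3, in that order. Those fits called 8.59%, 2.24% and 0.156% of all genes. Leaving out both IgG replicate 3 and APB5 replicate 3, chosen after seeing the data, gave 0.439 for Id1 and −0.0774 for Id4 in APB5 against IgG.

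In APB5+Mino against APB5, total count scaling called 0 of the 8, 0 of the lists and 0.0247% of all genes. It moved the median of all genes to −0.108. The counts were 3 and 7 with DESeq2, 2 and 7 with all 12 libraries, and 3 and 10 with Xist as a covariate, in fits that called 7.55%, 7.65% and 9.05% of all genes. With the replicate block they were 0 and 0, in a fit that called 0% of all genes. In the other comparisons not every library correlated best with its own replicate number. Xist as a covariate called 2 genes of the 10 and 7 of the lists in APB5 against IgG, where 5.57% of all genes were called. For the interaction it called 2 of the 8 and 5 of the lists, against 4.39% of all genes. DESeq2 called 1 of the lists in APB5 against IgG, against 0.428% of all genes. In APB5+Mino against IgG+Mino, no fold threshold gave 1 of the 8 and 2 of the lists, against 8.09% of all genes. The replicate block gave 1 of the 8, Id3 at −1.02 (adjusted p = 0.0134), against 1.7% of all genes. The block gave 0.00381 for Id1 in APB5 against IgG and −0.0186 for Bmp4 in IgG+Mino against IgG, where total count scaling gave −0.0187 for Smad7 and −0.0559 for Bmp4. The cause of these shifts was not tested. Other scalings and filters kept all calls of the 10 genes and lists within 1.5 times. The lowest count of the 10 genes in any library was 38, for Bmp6, and each group had only 3 libraries. What limited the calls was not tested.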

Other observations

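Id proteins act by holding bHLH factors, and 15 genes of a list of 16 such factors were tested. In APB5+Mino against APB5, edgeR called 1 of them, against 1.66% of all genes tested. This was Neurog2, a proneural factor, at 3.24 ± 0.99 CPM (SD, n = 3) in APB5 and 1.26 ± 0.0518 CPM in APB5+Mino, with a log2 fold change of −1.35 ± 0.28 (adjusted p = 0.0476). With the replicate block no gene was called. Next by p, Hes6 had −0.46 ± 0.10 (adjusted p = 0.0501) and Neurod6 −0.89 ± 0.24 (adjusted p = 0.0618). The median of the list was −0.38, with 10 of 15 genes negative, beside −0.02 over all genes tested. Against IgG+Mino none was called, and Neurod4, a factor of amacrine and bipolar cells, at 0.53 ± 0.10 (adjusted p = 0.0224) passed the adjusted p and not the fold threshold, where Neurog2 had −0.63 ± 0.20 (adjusted p = 0.0789).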
